A study of Mus musculus with 10 samples.

Results

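Alpha-actinin-2, the product of Actn2, crosslinks actin filaments at the Z-disc, the border between neighbouring sarcomeres of heart muscle. The genes described here encode 10 proteins grouped with it, called partners below without a claim that each binds it directly. These are the myozenins (Myoz1, Myoz2 and Myoz3), the myotilin family (Myot, Mypn and Palld), telethonin (Tcap), nebulette (Nebl), nexilin (Nexn) and the synaptopodin relative Synpo2l. The genes were taken by name from a table of 23337 genes, which held all 10. Messenger RNA was measured in sorted heart muscle cells (cardiomyocytes) of mice at postnatal day 14. Both groups carried floxed Actn2, an allele that Cre recombinase inactivates, and both received the virus AAV9-cTNT-Cre on postnatal day 1, in which a cardiac troponin T promoter drives Cre. The knockout group was Actn2F/F and the heterozygote group, which served as the control, was Actn2F/+, with 5 animals in each. No group without Cre or with 2 intact alleles was analysed, so each difference below is between 2 floxed alleles and 1 under Cre.

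Alpha-actinin-2 does not act alone: it anchors thin filaments and the ends of titin, and offers binding sites to a layer of smaller proteins. Myozenins bind alpha-actinin together with telethonin, filamin and the phosphatase calcineurin. Myotilin, myopalladin and palladin share immunoglobulin domains and tie alpha-actinin to actin, while telethonin joins the ends of 2 titin molecules. Mutations in several of these genes are known from inherited cardiomyopathy.

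Of the 10 genes, 8 passed the filter on low counts and were tested, and 3 rose in the knockout: Synpo2l 2.30-fold, Tcap 1.49-fold and Palld 1.21-fold. None fell. The other 5 (Myoz2, Myot, Mypn, Nebl and Nexn) did not pass the test, and Myoz1 and Myoz3 were too low to be tested. A gene counted as changed when its adjusted p, from the quasi-likelihood test of edgeR over 11870 genes, was under 0.05, which 18.9% of those genes met, 10.2% upward and 8.64% downward. Scaling by library totals alone raised the upward part of all calls from 54.3% to 68.9%, and upper-quartile scaling lowered it to 48.2%. The 8 tested genes had a median log2 fold change of 0.31, against 0.0023 over all tested genes. Only Synpo2l had no overlap between the groups, with all knockouts higher. Of all tested genes 14.7% had no overlap, 8.41% with knockouts higher and 6.32% with them lower.

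The control regions of the gene that rose most and of one that did not pass the test are shown first, to set their sequences beside the values that follow. Each window of 300 bases runs from 250 bases before a RefSeq start site to 50 after it, in build GRCm38.p6, read 5′ to 3′ on the gene's own strand, which is the minus strand for all 3. Capitals mark matches to the MEF2 motif, the site of a muscle transcription factor, on either strand. Synpo2l has 2 start sites in the table.
Synpo2l, outer start, chr14:20668305-20668604: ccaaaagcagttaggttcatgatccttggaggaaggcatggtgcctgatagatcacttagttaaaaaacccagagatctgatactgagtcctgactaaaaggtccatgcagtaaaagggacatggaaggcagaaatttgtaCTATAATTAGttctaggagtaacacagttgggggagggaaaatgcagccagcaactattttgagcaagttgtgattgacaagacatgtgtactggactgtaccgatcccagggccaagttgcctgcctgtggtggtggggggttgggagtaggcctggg
Synpo2l, inner start, chr14:20664525-20664824: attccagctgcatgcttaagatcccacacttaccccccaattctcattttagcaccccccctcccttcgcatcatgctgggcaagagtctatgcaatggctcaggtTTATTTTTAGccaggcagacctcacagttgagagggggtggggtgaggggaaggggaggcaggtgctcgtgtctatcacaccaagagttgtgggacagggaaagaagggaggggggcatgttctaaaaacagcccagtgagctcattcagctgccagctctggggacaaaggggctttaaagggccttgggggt
Myoz2, chr3:123034938-123035237: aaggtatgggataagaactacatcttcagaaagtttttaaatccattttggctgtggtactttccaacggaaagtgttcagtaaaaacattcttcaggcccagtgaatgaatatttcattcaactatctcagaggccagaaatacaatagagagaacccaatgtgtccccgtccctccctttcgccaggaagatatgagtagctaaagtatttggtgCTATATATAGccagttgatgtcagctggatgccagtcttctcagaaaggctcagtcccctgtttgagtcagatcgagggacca
Each of these windows held 1 MEF2 match, beginning at -109 in the outer and -144 in the inner Synpo2l window and at -33 in Myoz2, with the start site counted as 0. Of all 32851 windows in the table, 3.19% held such a match. The other 8 windows found, of Mypn, Nebl and Palld, held none, and the table has no entry for Myot, Myoz1, Myoz3, Nexn or Tcap. Searched in the same way, the CArG box of serum response factor was in 1 window, of Nebl (1.63% of all windows). CATTCC, the M-CAT element, was in 3, of Mypn, Nebl and Palld (14.7% of all). CANNTG, the E-box, was found in 72.3% of all windows. Matches were counted separately for each motif, so they may overlap, and a match describes letters, not binding. The 3 windows shown are all of those found that held a MEF2 match, so they are not a sample of the partner genes. They belong to a gene that rose and to one that did not pass the test. Palld, which also rose, had no MEF2 match in its windows.

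The samples held 8086656 to 25237696 counts, and heterozygote 1 was the deepest. Sorted cells carried cardiomyocyte genes throughout: the 7 markers listed for this type summed to 88834 to 112239 CPM in heterozygotes and 84007 to 108512 CPM in knockouts, and 1 of them, Tnni3, fell. Markers of other cells were present at lower levels. The 9 endothelial markers summed to 488 to 770.1 CPM in heterozygotes and 323 to 561 CPM in knockouts, and 1 of the 9, Egfl7, passed the test, downward. All 9 had negative log2 fold changes, from -0.65 to -0.38 with a median of -0.43. Fits with the summed level of these markers as a covariate are given below. That level differed between the groups, with overlapping ranges, so such a fit separates it from genotype only in part. The part of this difference in the results below was not tested. The 8 fibroblast markers summed to 329.5 to 538 and 318 to 648 CPM. The 8 markers of smooth muscle and pericytes summed to 670.3 to 1096 and 434 to 480.1 CPM, with Cspg4 higher and Acta2 and Tagln lower. Acta2 alone averaged 714 CPM in heterozygotes and 201.5 CPM in knockouts, and the lower sum in knockouts rests on this gene. Cspg4 went the other way, from a mean of 37.0 CPM in heterozygotes to 132 CPM in knockouts. The 8 immune markers in the table summed to 11.6 to 30.4 and 7.02 to 9.55 CPM, and 1 of the 3 tested, Csf1r, fell (log2 fold change -0.86). The 5 atrial markers summed to 9.54 to 81.5 and 21.6 to 374 CPM. Of these Nr2f2 fell (-0.85), and Sln (2.65), Myl7 (1.76), Myl4 (1.45) and Dkk3 (1.29) did not pass the test. Of red cell markers, Alas2 alone had counts, at most 13 in a sample, while the 4 globin genes were at 0. The reason for these zeros was not tested, so they are not read as a measure of red cells. In bulk samples, fewer cells of a type and less RNA per cell cannot be told apart.

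The targeted gene set the scale. Actn2 was at 1286, 1250, 1145, 1182 and 1220 CPM (counts scaled by library size, in the usual CPM unit) in knockouts 1 to 5. In heterozygotes 1 to 5 it was at 3366, 3454, 3474, 2930 and 2677 CPM. All knockouts lay below all heterozygotes, with a log2 fold change of -1.39 ± 0.0910 (SE; adjusted p 3.48e-07 in edgeR). Knockouts thus kept 0.38 of the heterozygote level, and the source of these remaining Actn2 reads was not tested.

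**Figure D1:**
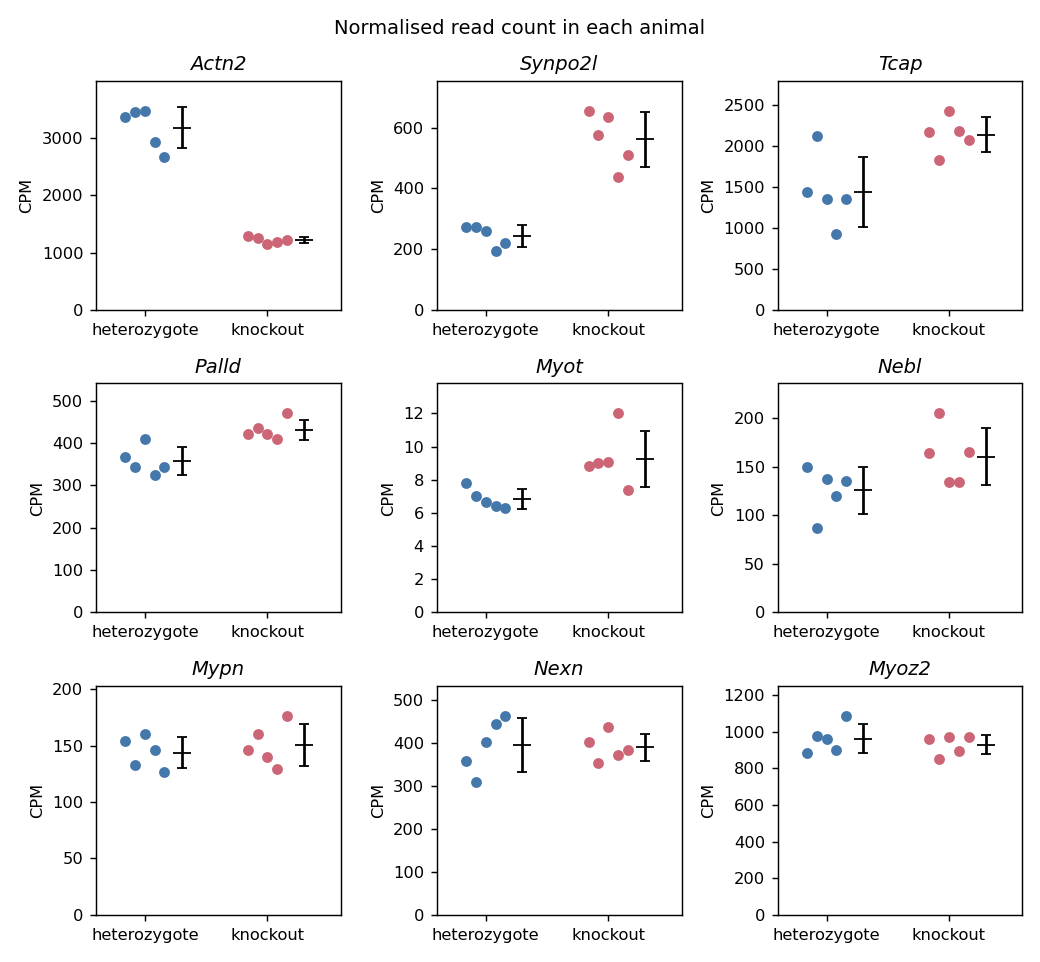
Normalised read count (CPM, each axis from 0) of Actn2 and the 8 tested partner genes in 5 heterozygotes (blue) and 5 knockouts (red), with the mean and SD in black. The groups part for Actn2 and for Synpo2l, where knockouts begin at 436 CPM and heterozygotes end at 275 CPM, and overlap for the rest.

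Synpo2l encodes an actin-associated protein enriched in heart and skeletal muscle that binds alpha-actinin-2. Its level in knockouts 1 to 5 was 655, 575, 635, 436 and 510 CPM. Heterozygotes 1 to 5 held 272, 275, 260, 194 and 221 CPM. The lowest knockout, number 4, stood well above the highest heterozygote, so the groups did not overlap. Heterozygotes averaged 244 ± 35.4 and knockouts 562 ± 90.5 CPM (SD, n = 5). On the log2 scale this was a rise of 1.20 ± 0.131 (SE; adjusted p 2.66e-05 in edgeR). Under the 19 alternative settings tried the log2 fold change of Synpo2l ran from 1.07 to 1.28, and it passed the threshold in all 19. Its 4 exons span bases 20659418 to 20668306 of chromosome 14 (mm10, minus strand).

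Tcap encodes telethonin, the small protein that caps titin at the Z-disc. In CPM, knockouts 1 to 5 held 2167, 1836, 2429, 2184 and 2072, and heterozygotes 1 to 5 held 1440, 2119, 1352, 929 and 1352. Heterozygote 2 stood among the knockouts, and the other 4 heterozygotes were below every knockout. Means were 1438 ± 430 and 2138 ± 214 CPM (SD, n = 5), a log2 rise of 0.57 ± 0.165 (SE; adjusted p 0.0259 in edgeR). The call was lost without heterozygote 3 (adjusted p 0.0530), heterozygote 5 (0.0539) or knockout 3 (0.0683). With the endothelial marker level as a covariate the log2 fold change of Tcap was 0.40 (adjusted p 0.312). That level differed between the groups, with overlapping ranges, so the fit separates it from genotype only in part. Tcap lies on chromosome 11 at 98383811 to 98384953, on the plus strand, with 2 exons.

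In the myotilin family, palladin alone passed the test. Palld encodes an actin-bundling protein that is also common outside muscle. In CPM, knockouts 1 to 5 held 421, 436, 421, 409 and 470.4, and heterozygotes 1 to 5 held 367, 343, 409.8, 324 and 344. The groups met at their edges, where heterozygote 3 slightly exceeded knockout 4. Means were 358 ± 32.9 and 432 ± 23.7 CPM (SD, n = 5), a log2 rise of 0.27 ± 0.0868 (SE; adjusted p 0.0420 in edgeR). Omitting single animals ended the call 8 times in 10, each time but for heterozygotes 2 and 3, with adjusted p up to 0.110 (without knockout 5). It was also lost with the replicate block (adjusted p 0.0729), with RLE (0.0507) and upper-quartile scaling (0.0622), without a filter (0.0606) and with the endothelial covariate (0.365). The log2 fold change of Palld in these 5 settings was 0.27, 0.26, 0.24, 0.28 and 0.21, in the same order. The fibroblast and smooth muscle markers whose sums are given above are those of cells that also express Palld, and their part in the result was not tested. Palld spans chromosome 8 from 61515021 to 61902690 on the minus strand, and the 20 exons counted hold all of 1 of its 4 transcripts compared in GENCODE M21 and 32.0% to 55.6% of the other 3.

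Mypn encodes myopalladin, which joins alpha-actinin to nebulin-type proteins and to the stress protein Ankrd1. It ranged from 129 to 176 CPM in knockouts and from 126.1 to 159.9 CPM in heterozygotes, so the groups covered much the same range. Its log2 fold change was 0.07, with a 95% interval of -0.16 to 0.29 (edgeR adjusted p 0.722). Myot encodes myotilin, chiefly a protein of skeletal muscle, and was far lower: 8.85, 9.01, 9.07, 12.01 and 7.36 CPM in knockouts 1 to 5. In heterozygotes 1 to 5 Myot was at 7.81, 6.999, 6.66, 6.44 and 6.30 CPM, on 52 to 186 counts. Knockout 5 lay within the heterozygote range and the other 4 knockouts above it. The log2 fold change of Myot was 0.42 (95% interval 0.08 to 0.77, edgeR adjusted p 0.0833), and of 19 alternatives it passed in 1, scaling by library totals (adjusted p 0.0391). The mRNA of this family was mostly palladin in both groups. Per length, Palld made up 76.7% ± 1.40 of the family in heterozygotes and 78.7% ± 0.636 in knockouts (SD, n = 5), 2.02 points more (exact two-sided permutation p = 0.0238, adjusted over 3 shares 0.0476). That share lost its call in 7 of 10 omissions of 1 animal, all but those of heterozygote 5 and of knockouts 2 and 5. The share of Myot was 2.38% ± 0.225 and 2.75% ± 0.641 (SD, n = 5; exact permutation p = 0.270, adjusted 0.270), a difference of 0.375 points. That difference was 0.570 points without knockout 5 (adjusted p 0.0476) and 0.124 points without knockout 4 (adjusted p 0.540).

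**Figure D2:**
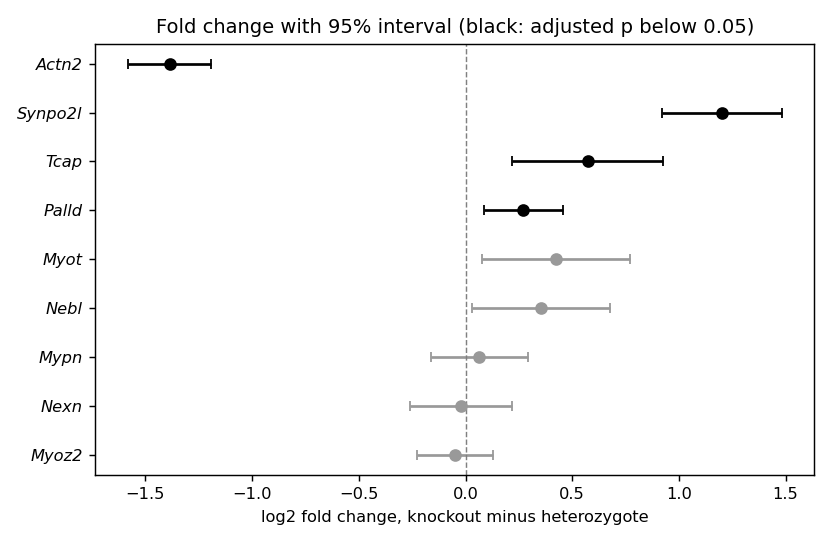
Log2 fold change (knockout minus heterozygote) of Actn2 and the 8 tested partner genes, with unadjusted 95% intervals from the edgeR fit. Points in black passed an adjusted p of 0.05: Actn2 at -1.39, Synpo2l at 1.20, Tcap at 0.57 and Palld at 0.27.

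The myozenins, also called calsarcins, tether calcineurin to the Z-disc, and here a single member passed the count filter. Myoz2, the form of heart and slow muscle, was at 958, 851, 968, 896 and 971 CPM in knockouts 1 to 5. Heterozygotes 1 to 5 were at 885, 978, 958, 902 and 1086 CPM. The groups overlapped, with knockout 2 the lowest and heterozygote 5 the highest. The log2 fold change was -0.05 with a 95% interval of -0.23 to 0.13 (edgeR adjusted p 0.731), which leaves room for a fall or a rise of that size. Its sign turned with scaling by library totals (0.030). Myoz1, the form of fast skeletal muscle, had 24, 5, 22, 9 and 15 counts in knockouts 1 to 5 and 13, 3, 5, 1 and 7 counts in heterozygotes 1 to 5. Knockouts 1 and 3 were the highest, and the groups overlapped. Heterozygotes 2 and 4 were at or below 3 counts, the number taken as the limit of detection, so no fold is given. As a share of the myozenins per length, Myoz1 was 0.0431% ± 0.0207 in heterozygotes and 0.128% ± 0.0824 in knockouts (SD, n = 5; exact permutation p = 0.0317, adjusted 0.0476). The share of Myoz1 was past the threshold in 1 of the 10 omissions of 1 animal, that of knockout 2, and rests on these few counts. Myoz3 had 0 counts in all 10 samples, where 3 counts would be 0.126 to 0.384 CPM. The reason for these zeros was not tested. Among 12 markers of skeletal muscle, Myod1 and Myf6 were also at 0, Myh1, Myh2 and Myh4 reached at most 7 counts, Mybpc2 was called higher and Ckm, which the heart also expresses, lower. The part of these markers in the Myoz1 and Myot values was not tested.

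Each myozenin gene stands beside a synaptopodin gene in the mouse genome, and the 3 pairs are shown because Synpo2l is one of these neighbours. This arrangement was examined after the values had been seen. Myoz1 and Synpo2l are 2.88 kb apart on chromosome 14, Myoz3 and Synpo 2.27 kb apart on chromosome 18, and Myoz2 and Synpo2 41.5 kb apart on chromosome 3. In every pair both genes are on the same strand, with no other gene of the table between them. Synpo, which encodes the actin-binding protein synaptopodin, was at 171, 146, 160, 130 and 151 CPM in knockouts 1 to 5. Heterozygotes 1 to 5 held 73.2, 73.8, 72.2, 60.6 and 53.1 CPM of Synpo. The groups did not overlap, and its log2 fold change was 1.19 ± 0.113 (SE; adjusted p 9.29e-06 in edgeR), beside 1.20 for Synpo2l. Synpo2, which encodes myopodin, was at 101 ± 11.9 CPM in heterozygotes and 82.7 ± 10.0 CPM in knockouts (SD, n = 5; log2 fold change -0.29, 95% interval -0.52 to -0.05, edgeR adjusted p 0.0807). So the neighbours of Myoz1 and Myoz3, which were both too low to be tested, rose, while neither Myoz2 nor its neighbour passed the test. The difference between these pairs was not tested.

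**Figure D3:**
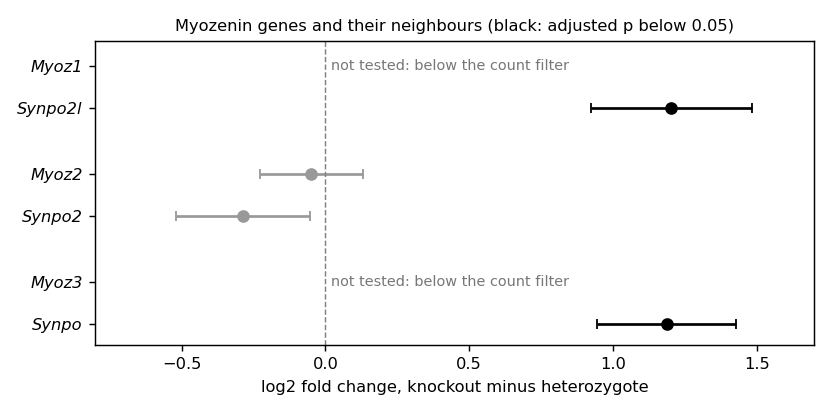
Log2 fold change (knockout minus heterozygote, with 95% intervals) of the myozenin genes and of the synaptopodin genes next to them, pair by pair. Synpo2l (1.20) and Synpo (1.19) passed the test (black), Myoz2 (-0.05) and Synpo2 (-0.29) did not, and Myoz1 and Myoz3 were below the count filter.

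Nebl encodes nebulette, a cardiac relative of nebulin that binds actin at the Z-disc, and, from another start, the shorter LIM protein LASP2. The counts do not measure these 2 products evenly. The 7 exons counted on chromosome 2, between 17346734 and 17731068 on the minus strand, follow the short form and hold 51.1% of its bases. Against GENCODE M21, 3 of the 28 exons of the long transcript were counted, 29.9% of its bases, and 81.1% of the counted bases belong to both forms. On this mixed measure Nebl was at 164, 205, 134, 135 and 165 CPM in knockouts 1 to 5. It was at 150, 86.7, 137, 120 and 135 CPM in heterozygotes 1 to 5. Heterozygote 2 was the lowest of all and knockout 2 the highest, with overlap among the rest. The log2 fold change of Nebl was 0.35 (95% interval 0.03 to 0.68, edgeR adjusted p 0.121), and it did not pass under any of the 19 alternatives (adjusted p 0.0583 to 0.438). A shift between the forms cannot be read from these counts.

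**Figure D4:**
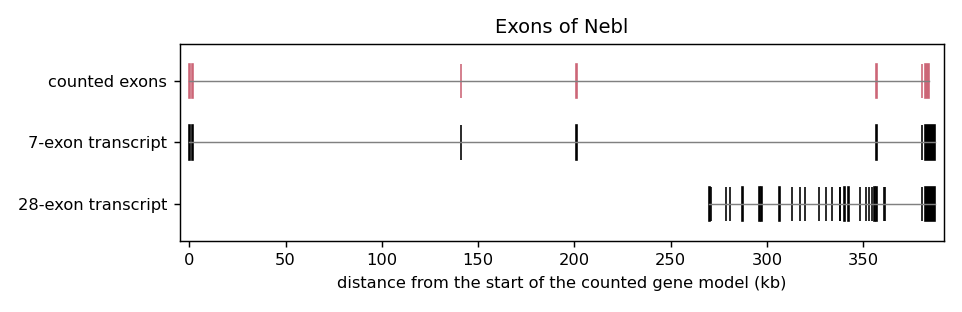
Exons of Nebl as distance in kb from the start of the counted gene model, for the exons that were counted (red) and for the 7-exon and 28-exon transcripts of GENCODE M21 (black). The counted exons follow the 7-exon transcript and meet the 28-exon one in 3 exons near its end.

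Nexn encodes nexilin, an actin-binding protein found at the Z-disc and at the junctions of the sarcoplasmic reticulum. In CPM, knockouts 1 to 5 held 404, 355, 437, 373 and 384, and heterozygotes 1 to 5 held 360, 310, 403, 445 and 464. All 5 knockouts lay inside the heterozygote range. The log2 fold change was -0.02 with a 95% interval of -0.26 to 0.22 (edgeR adjusted p 0.924), and its sign changed with library totals and in 3 of the 10 omissions of 1 animal.

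Levels of different genes were compared per length, as RPKM (CPM divided by the counted length in kilobases). In heterozygotes Tcap led with 1517 ± 453 RPKM (SD, n = 5), followed by Myoz2 with 834 ± 68.7. Nexn was at 155 ± 24.6, Palld at 100.3 ± 9.23 and Synpo2l at 62.3 ± 9.02 RPKM. Nebl at 42.2 ± 8.13 overlapped both Synpo2l above it and Mypn at 27.4 ± 2.70 below it. Myot was at 3.10 ± 0.274 and Myoz1 at 0.364 ± 0.182 RPKM. The remaining neighbours in this order did not overlap. In knockouts the order changed at 1 place: Synpo2l, at 143 ± 23.1 RPKM, passed Palld at 121 ± 6.65. Its range then overlapped those of Palld and of Nexn at 152 ± 12.3 RPKM. The counted exons hold at most 51.1% of the bases of any Nebl transcript compared, and only part of most Palld transcripts. The places of Nebl and Palld in this order thus depend on which transcripts were expressed, which was not tested. Set against Actn2 per length, the partners gained on it. Myoz2 mRNA was 79.4% ± 14.9 of Actn2 in heterozygotes and 198% ± 15.8 in knockouts, and Synpo2l 5.84% ± 0.496 and 35.2% ± 5.58. These ratios are a description, since Actn2, which fell, is their denominator.

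**Figure D5:**
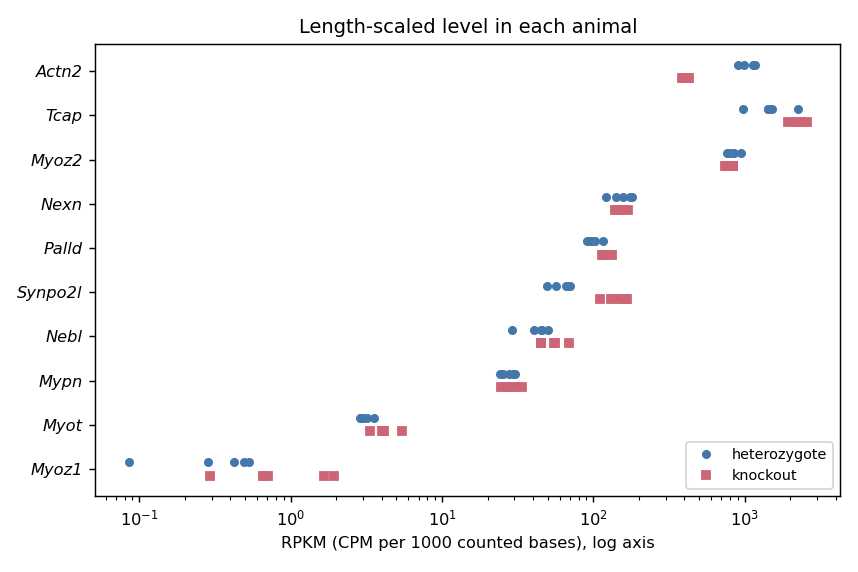
Level per length (RPKM, log axis) of Actn2 and of the 9 partner genes with any count, in each heterozygote (blue circles) and knockout (red squares). Tcap and Myoz2 stand above the other partners in both groups, while Synpo2l moves from below Palld to overlap with it; Myoz3, at 0 in all samples, is left out.

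The genes whose pattern over the 10 samples was most like that of a member were ranked by root-mean-square difference in log2 CPM, each gene set relative to its heterozygote mean, among 8362 genes. The difference between the groups stays in this measure, so it favours genes with a like fold change and does not show that genes vary together between animals. Nearest to Synpo2l were Tox3 (0.0906), its relative Synpo (0.114) and Col4a5 (0.139). Their log2 fold changes were 1.20, 1.19 and 1.12, beside 1.20 for Synpo2l. Nearest to Tcap were Dact3 (0.150), C130039O16Rik (0.158) and Slc25a23 (0.169). Pip5k1a (0.132), 4930523C07Rik (0.134) and Poglut1 (0.138) were nearest to Myot. For Nebl they were Arhgap21 (0.106), Zyg11b (0.107) and Pde3a (0.115).

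Other Z-disc genes were counted for comparison, on a list chosen with earlier results of these data known. Of 28 listed, 27 were tested, and 15 rose and 2 fell, with a median log2 fold change of 0.43. Over all tested genes 10.2% rose and 8.64% fell, with a median of 0.0023. The largest changes were rises of Ankrd1 (2.97), a stretch-responsive partner of titin and myopalladin, Xirp2 (2.18), an actin-binding Xin repeat protein, and Pdlim3 (1.75), an alpha-actinin-binding PDZ-LIM protein. Sorbs2 (1.69), an adaptor of Z-discs and adhesions, and Fhl1 (1.64), a LIM protein that binds titin, followed. With the endothelial covariate 10 were called higher, while the median log2 fold change of the list was 0.39. Whether this list and the 10 partner genes differ was not tested.

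Relatives by sequence family of the partner genes or of Actn2 itself, 7 of 8 of them tested, included 3 that rose and none that fell. These were Synpo, Nrap (1.03, from 450 ± 53.3 to 921 ± 90.2 CPM, SD, n = 5), a nebulin relative of growing myofibrils, and Actn4 (0.38), a non-muscle alpha-actinin. Actn3, the alpha-actinin of fast muscle, had at most 8 counts in a sample. Among 12 calcineurin subunits and regulators, all tested, 4 rose and 1 fell, with a median log2 fold change of 0.01. Rcan1, an inhibitor of calcineurin that is itself a target of its signalling, rose by 1.11 on the log2 scale, with 196 ± 44.5 CPM in heterozygotes and 423 ± 102 CPM in knockouts (SD, n = 5; edgeR adjusted p 0.000620). Nfatc2 (0.59), Cib1 (0.50) and Cabin1 (0.42) also rose, and Ppp3cb, a catalytic subunit, fell by 0.32 on the log2 scale. Over all tested genes 10.2% rose and 8.64% fell, with a median log2 fold change of 0.0023. These relatives and calcineurin genes were picked for naming after their values had been seen.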

How the data were processed

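Total RNA of cardiomyocytes sorted by flow cytometry was made into SMART-seq libraries, per the series' design text. The deposited values are whole-number counts of reads per gene, not normalised. Per the file headers, they were made with featureCounts 1.5.1 against the UCSC gene annotation of mm10 with no option beyond threads, so strand was not used. The submitters' processing notes name STAR 2.5.3a, while the alignment files named in the header do not state an aligner. The table's other 4 count columns match no sample here and were not used. The members and gene lists were chosen with earlier results of these data known.

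Genes were kept with edgeR's filterByExpr (minimum count 10, minimum total 15) and scaled with TMM factors. The 5 knockouts were compared with the 5 heterozygotes by edgeR's quasi-likelihood test (edgeR 4.0.16, R 4.3.3) without covariates, with Benjamini-Hochberg adjustment over all tested genes. Total counts were 8086656 to 25237696, at which 3 counts equal 0.126 to 0.384 CPM (counting error only). Replicate pairs differed by 10.8 to 37.5 chi-square per degree of freedom, so none was a copy. SE is the log2 fold change divided by the square root of F. CPM are counts divided by the TMM-scaled total, and log2 CPM has a prior count of 1. Shares were compared with exact permutation tests over 252 arrangements (scipy 1.17.1, smallest p 0.00794). Named were the 10 members, Actn2, up to 5 called genes of the Z-disc list by size of change, and the 3 genes nearest to each of the 4 tested members with the largest log2 fold changes in size, called or not, with a mean of at least 10 CPM. Alternatives were RLE, upper-quartile and library-total scaling, no filter, a mean of at least 5 CPM, the replicate block, an endothelial covariate, DESeq2 1.42.0, limma's voom (3.58.1) and leaving out each animal. Coordinates are mm10, and sequences are RefSeq's. The procedure was tested on simulated counts. There 27.3% of 99 genes with a true log2 fold change of 0.5 in size were called, and 75.3% of 97 genes with 1. Of the calls, 6.54% were false, and a simulation without any change gave 0 calls. Changes of 0.5 were thus mostly missed there. Far fewer genes changed in the simulation than were called here, so these rates need not hold for the data.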

Additional observations from a re-analysis of the deposited data

Results flagged for a closer look

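The total of heterozygote 1, 25237696 counts, stood apart from the next highest in its group, 10309615, by a gap of 0.870 of the group's range. It was the single value out of 26 groups of 5 (totals, genes and shares in 1 genotype) with a gap above 0.71, where chance alone gives about 1 in 20. Without this animal 2 of the 8 tested partner genes were called, Synpo2l and Tcap (adjusted p 0.0489), and Palld was not (0.0627).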

How the results depend on the processing

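Under the 19 alternatives Actn2 (-1.44 to -1.30) and Synpo2l (1.07 to 1.28) kept direction and call. Tcap kept its call in 15 and Palld in 6 of 19. With the endothelial covariate 965 genes and 1 partner gene (Synpo2l) were called. This covariate differed between the groups, with overlapping ranges, so that fit separates it from genotype only in part. Leaving out 1 animal gave 1 to 3 partner genes, with 1 left without heterozygote 5 or knockout 3, and 1699 to 2258 calls over all genes. Library totals turned the signs of Myoz2 (0.030) and Nexn (0.053) and added Myot (0.51). Nexn also turned without heterozygote 4 (0.023), heterozygote 5 (0.043) and knockout 2 (0.011), within a range of -0.096 to 0.043 over these omissions. Without a filter Myoz1 was tested and not called (edgeR adjusted p 0.0968), on counts of 1 to 24. Leaving out 1 animal gave share differences of 0.0586 to 0.107 points for Myoz1, 1.53 to 2.41 for Palld and 0.124 to 0.570 for Myot. Counts not divided by length changed no call. The cause of the lost calls was not tested, and omissions also leave fewer samples.

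Samples of the same replicate number deviated from their group means with correlations of -0.06 to 0.19 over genes, and 2 of the 5 correlated best with their own number. So few correlations cannot decide whether the numbers pair the animals. With the replicate block 2182 genes and 2 partner genes were called. Palld (0.27) was then not called. In the paired form of the share tests the differences for Myoz1 (0.0846 points) and Palld (2.02 points) had an adjusted p of 0.188, where 5 pairs allow no exact p below 0.0625.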
